A study of Brassica rapa with 5 samples.

Results

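A group of 30 genes of Brassica rapa, a Brassicaceae crop, had higher transcript levels in leaves under Fe deficiency and lower levels under Cd exposure than in leaves of plants on normal supply, with smaller changes under Zn deficiency and Zn excess. They were chosen by these changes from 10807 genes with a mean of at least 5 TPM (tags per 1000000 clean tags) over 5 conditions, of 29183 genes listed in any condition. The change is the log2 of (TPM + 1) in a treatment minus the same in the control, a scale on which genes of low TPM appear to change less than their plain ratio. A member had a change of at least 1 under Fe deficiency, at most -1 under Cd exposure, and between -1 and 1 under both Zn treatments. All 4 changes therefore served to choose the genes, and they are given as a description with no test.

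Plants of accession R-o-18 grew for 14 days in a hydroponic solution that held 3 µM Fe and 2 µM Zn but no Cd. They were then kept in that solution as the control or moved for 7 days to 0.05 µM Fe (Fe deficiency), 0.005 µM Zn (Zn deficiency), 50 µM Zn (Zn excess) or 1 µM Cd (Cd exposure). Fe was given as Fe(Na)EDTA, and Zn and Cd as their sulfates. Leaf RNA was measured by digital gene expression, a tag count method that assigns short reads to genes, in 3 replicates of 3 pooled plants per condition. The deposited data hold 1 value per condition, read here as the mean of 3 libraries, so no condition has a separate replicate value.

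Plants need Fe in leaves for the electron carriers of photosynthesis and respiration, for heme and iron-sulfur proteins, and for the synthesis of chlorophyll. When Fe runs short, leaves change the expression of genes for Fe transport, storage and signalling. Cd has no known role in this species, and as a divalent ion it can enter through transporters of Fe and Zn. Genes that move in opposite directions under a lack of Fe and under a toxic metal are of interest because Cd exposure is often discussed as a disturbance of Fe supply. The files give gene identifiers with no names, and none of the 29183 identifiers is paired with a name in the RefSeq table used here, so the roles, positions and sequences of the 30 genes are not given. For the same reason the leaf label was not checked against marker genes. In whole leaves, fewer cells of a type and less RNA per cell cannot be told apart.

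The mean number of clean tags per library was between 5744074 in the Zn deficiency and 5867647 in the Fe deficiency samples, and 54.0% (Cd exposure) to 58.6% (Fe deficiency) of them lay in genes. The median log2 change of all 10807 genes was 0.17 under Fe deficiency and -0.07 in the Cd comparison. Relative to these medians, the median change of the 30 genes was 1.13 under Fe deficiency and -1.20 in the Cd comparison.

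In the plot of levels by condition, the 30 genes spanned a wide range of abundance and shared much of the order of the conditions. In the control their levels ran from 3.36 to 161 TPM, with a median of 16.3 TPM. Under Fe deficiency they ran from 10.2 to 443 TPM (median 40.4), and under Cd exposure from 0.638 to 73.3 TPM (median 6.15). The rule fixes Fe deficiency as the highest and Cd exposure as the lowest level in each gene. It does not fix the conditions between them. Zn deficiency gave the second highest level in 28 of the 30 genes and Zn excess in the other 2, Bra010669 and Bra017931 (chosen after their values were seen). The second lowest level was that of Zn excess in 18 genes, of the control in 11 and of Zn deficiency in 1. No share of all genes is given beside these counts, so they do not show that this order is particular to the 30. The plain TPM ratio of Fe deficiency to control was 2.05 to 4.53 (median 2.52), that of control to Cd exposure 2.04 to 7.47 (median 2.64), and that of Fe deficiency to Cd exposure 5.12 to 27.3 (median 7.34).

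**Figure D1:**
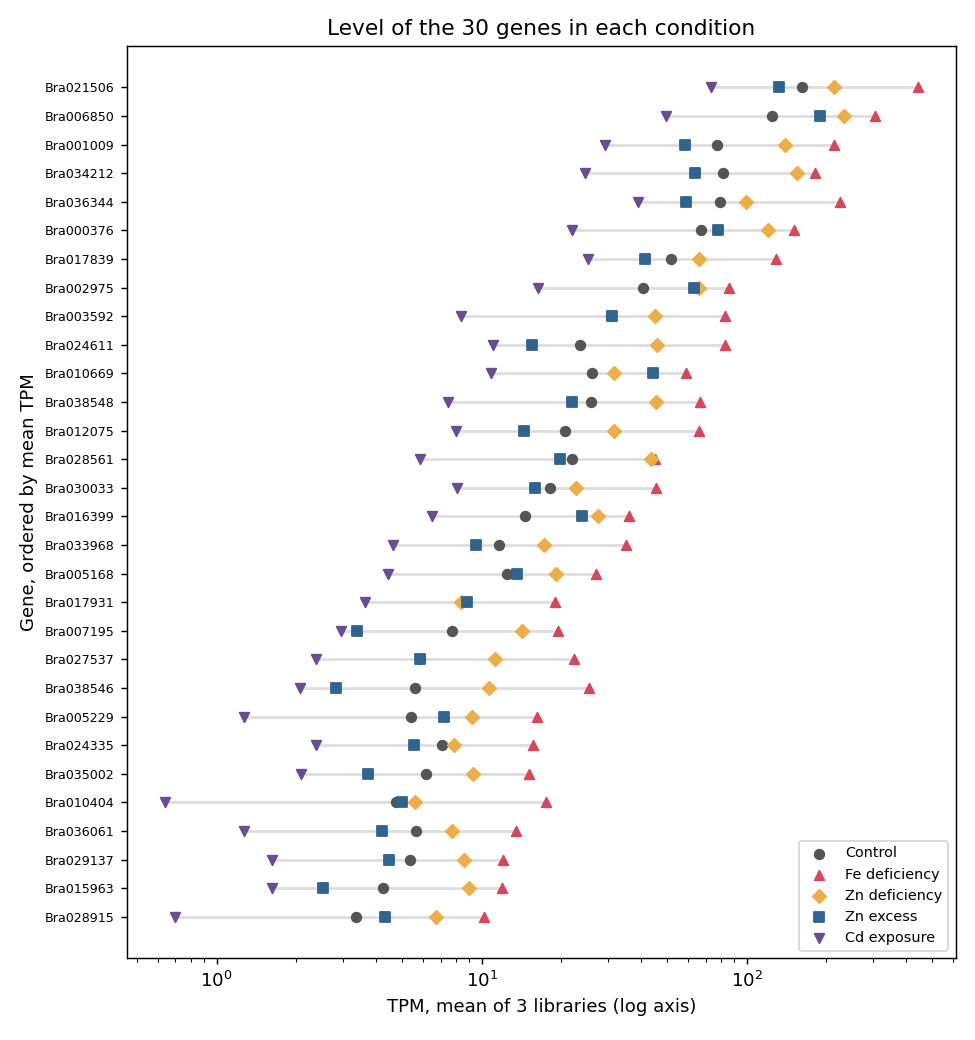
TPM (log axis, mean of 3 libraries) of each of the 30 genes in the 5 conditions, with genes ordered by their mean TPM and a grey line from the Cd to the Fe deficiency level. Zn deficiency lies next to Fe deficiency in 28 genes, and the Cd level is the lowest in all 30, as the rule requires.

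Among all 10807 genes, 402 were at least 2-fold higher under Fe deficiency (3.72%) and 316 at least 2-fold lower under Cd exposure (2.92%), and 74 were both (0.685%). The 30 members, 0.278% of the genes tested, are the part of these 74 that stayed within the limits for Zn. They make up 7.46% of the genes higher under Fe deficiency and 9.49% of those lower under Cd exposure. These shares follow from the rule, and both changes share the control. Of the 44 genes left out by the limits for Zn, 40 were at least 2-fold higher under Zn deficiency (2.66% of all genes were) and 8 were changed at least 2-fold either way under Zn excess (2.00% of all genes), with 4 counted in both.

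**Figure D2:**
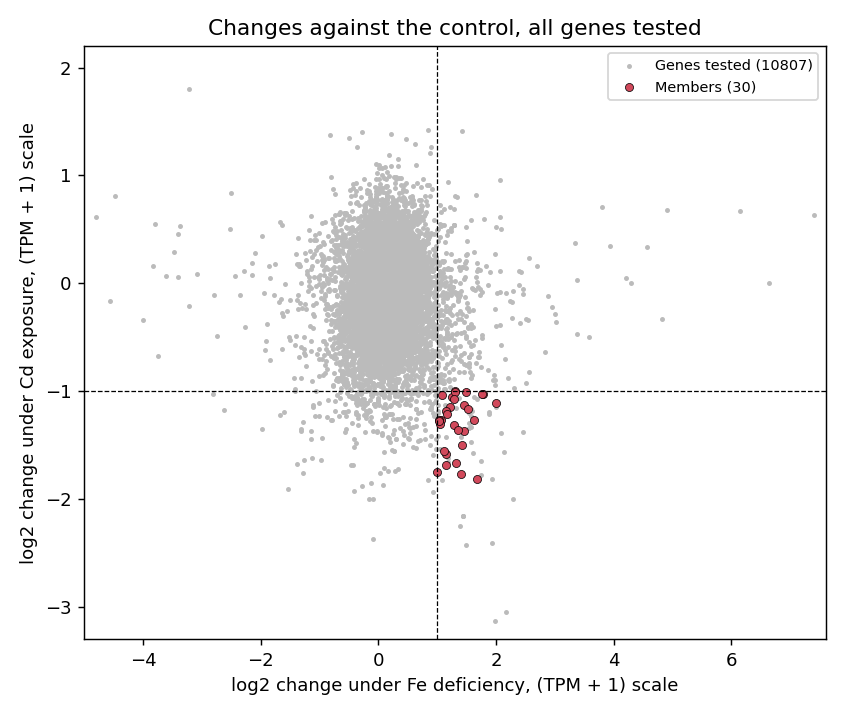
Change under Fe deficiency (x axis) and under Cd exposure (y axis), both log2 on the (TPM + 1) scale, for 10807 genes (grey) and the 30 members (red). Dashed lines mark the thresholds of 1 and -1, and the grey points in the lower right corner are genes that passed both thresholds but not the limits for Zn.

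Of the 5 members with the highest mean level, 1 was higher and 4 were lower under Zn excess than in the control. Bra021506 had 161 TPM with normal supply, 443 with low Fe, 214 with low Zn, 132 with high Zn and 73.3 with Cd. Bra006850 had 125 TPM with normal supply, 305 with low Fe, 234 with low Zn, 189 with high Zn and 49.8 with Cd. Both had their highest levels in the deficiencies, and Bra006850 was the 1 above the control under Zn excess. Bra001009 had 77.1 TPM with normal supply, 214 with low Fe, 140 with low Zn, 58.4 with high Zn and 29.1 with Cd. Bra034212 had 81.2 TPM with normal supply, 181 with low Fe, 155 with low Zn, 64.0 with high Zn and 24.6 with Cd. Bra036344 had 79.7 TPM with normal supply, 225 with low Fe, 99.1 with low Zn, 58.9 with high Zn and 39.0 with Cd. These 3 genes had similar control levels. Under Zn deficiency Bra036344 was 0.31 above the control on the log2 scale and Bra034212 was 0.92 above, and under Cd exposure their changes were -1.01 and -1.68.

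The largest changes under Fe deficiency were in genes of low to middle abundance. Bra038546 had the largest, 2.00 on the log2 scale, from 5.63 TPM in the control to 25.5 TPM, and had 10.6 TPM with low Zn, 2.81 with high Zn and 2.07 with Cd. Bra024611 was next with 1.78, from 23.5 to 83.0 TPM, and had 46.0 TPM with low Zn, 15.6 with high Zn and 11.0 with Cd. Both were lower under Zn excess than in the control, Bra038546 by nearly as much as under Cd exposure. Bra027537 went from 5.86 TPM in the control to 22.4 TPM under Fe deficiency, a change of 1.77, with 11.2 TPM with low Zn, 5.86 with high Zn and 2.37 with Cd. Bra012075 went from 20.7 to 66.0 TPM, a change of 1.63, with 31.7 TPM with low Zn, 14.5 with high Zn and 7.99 with Cd.

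Bra010404 stood out in both directions. Its level was 4.76 TPM with normal supply, 17.4 with low Fe, 5.62 with low Zn, 5.003 with high Zn and 0.638 with Cd. The Fe deficiency and Cd exposure levels differed 27.3-fold, and the control and both Zn conditions lay within 0.20 of each other on the log2 scale. The Cd value rests on 11 tags summed over 3 libraries, with an exact Poisson 95% interval of 0.318 to 1.14 TPM that covers counting error only, against 3.78 to 5.88 TPM in the control. Bra010404 was the single gene left when both thresholds were moved to 1.5.

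On the (TPM + 1) scale, the other large differences under Cd exposure were in genes of higher abundance. By the plain ratio of control to Cd exposure they were not. After Bra010404 the largest ratios were those of Bra028915 (4.84), Bra036061 (4.45) and Bra005229 (4.26), named after their values were seen. Their control levels were 3.36, 5.66 and 5.42 TPM. The ratios of the genes below were smaller, at most 3.77 (Bra028561). Bra003592 had 30.8 TPM with normal supply and 8.33 TPM with Cd, a log2 change of -1.77, beside 83.1 TPM with low Fe, 45.2 with low Zn and 31.0 with high Zn. Bra028561 had 22.0 TPM with normal supply and 5.83 TPM with Cd, a change of -1.75. Its levels in the 2 deficiencies were nearly equal, 45.0 TPM with low Fe and 43.5 with low Zn, and high Zn gave 19.8 TPM. Bra038548 had 25.9 TPM with normal supply and 7.46 TPM with Cd, a change of -1.67, beside 66.4 TPM with low Fe, 45.4 with low Zn and 22.0 with high Zn.

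Against the control mean, the limits for Zn did not remove a shared direction under Zn deficiency. The median change of the 30 genes there was 0.63, with 29 of 30 above 0, against a median of -0.01 and 5300 of 10807 above 0 over all genes. The 229 genes at least 2-fold higher under Fe deficiency only had a median of 0.49 there, with 82.1% above 0. In the 191 genes at least 2-fold lower under Cd exposure only it was 0.16, with 64.9% above 0. Both groups were chosen against the same control mean, and a rise under Zn deficiency was not particular to the 30. In 21 members the change was at least 0.5, and in 11 at least 0.8, just inside the limit. Shares of all genes are not given for these counts, so they only describe where the members lay within the limit. The highest were Bra028561 (0.95) and Bra024611 (0.94). The lowest were Bra017931 with -0.02 (8.47 TPM in the control and 8.34 under Zn deficiency) and Bra024335 with 0.12 (7.11 and 7.84 TPM). A further 36 genes met the same thresholds for Fe deficiency, Cd exposure and Zn excess but were at least 2-fold higher under Zn deficiency. The genes with a Zn deficiency change of at least 0.8 thus lie next to these 36, and the limit divides a continuous range. The shared direction was weaker against the control library of lowest total alone, whose level is bounded further below. Against that library, 16 to 25 of the 30 genes were higher under Zn deficiency.

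Under Zn excess the members went either way. The median change was -0.22, with 12 of 30 above 0, against a median of 0.07 and 6381 of 10807 above 0 over all genes. Bra010669 was the highest, from 26.0 TPM in the control to 44.5 TPM, a change of 0.75, and had 59.3 TPM with low Fe, 31.6 with low Zn and 10.9 with Cd. Bra016399 followed with 0.69, from 14.5 to 24.0 TPM, with 35.9 TPM with low Fe, 27.6 with low Zn and 6.48 with Cd. At the other end, Bra007195 had 7.76 TPM with normal supply and 3.39 TPM with high Zn, a change of -0.997, just inside the limit, close to its 2.95 TPM with Cd. It had 19.5 TPM with low Fe and 14.2 TPM with low Zn.

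**Figure D3:**
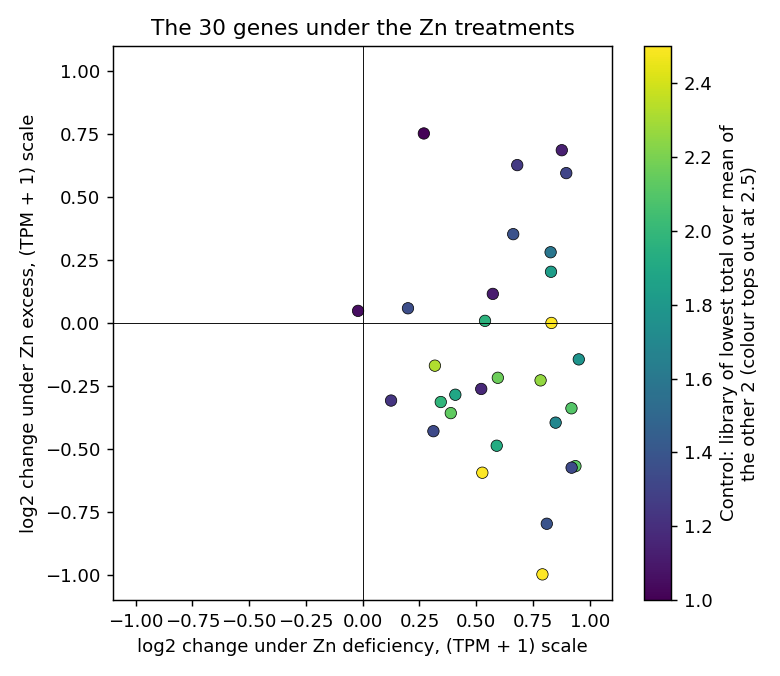
Change under Zn deficiency (x axis) and Zn excess (y axis), both log2 on the (TPM + 1) scale and against the same control, for the 30 genes. Colour is the ratio of the control library of lowest total to the mean of the other 2 (the scale ends at 2.5), and 29 of 30 genes lie right of 0 while the 4 highest on the y axis have control ratios of 1.01 to 1.31.

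Some members sat close to a threshold. Just inside the threshold for Fe deficiency were Bra028561 (1.002), Bra024335 (1.03, with 7.11 TPM in the control and 15.6 under Fe deficiency) and Bra029137 (1.04, with 5.37 and 12.1 TPM). Just outside it were Bra017133 (0.98), Bra011734 (0.96) and Bra031030 (0.95). Just inside the threshold for Cd exposure were Bra015963 (-1.001, with 4.25 TPM in the control and 1.62 under Cd exposure), Bra017839 (-1.01, with 51.8 and 25.3 TPM) and Bra036344 (-1.01). Just outside it were Bra002139 (-0.98), Bra007202 (-0.98) and Bra027838 (-0.96).

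These genes also had their lowest level with Cd and their highest with low Fe. Bra024335 had 7.11 TPM with normal supply, 15.6 with low Fe, 7.84 with low Zn, 5.55 with high Zn and 2.37 with Cd. Bra029137 had 5.37 TPM with normal supply, 12.1 with low Fe, 8.62 with low Zn, 4.48 with high Zn and 1.62 with Cd. Bra017931 had 8.47 TPM with normal supply, 19.0 with low Fe, 8.34 with low Zn, 8.79 with high Zn and 3.62 with Cd, so its normal and Zn levels hardly differed. Bra017839 had 51.8 TPM with normal supply, 129 with low Fe, 66.1 with low Zn, 41.5 with high Zn and 25.3 with Cd. Bra015963 had 4.25 TPM with normal supply, 11.9 with low Fe, 8.93 with low Zn, 2.52 with high Zn and 1.62 with Cd. The gene nearest outside the Fe threshold, Bra017133, had 12.5 TPM with normal supply, 25.6 with low Fe, 14.8 with low Zn, 13.6 with high Zn and 5.37 with Cd. The gene nearest outside the Cd threshold, Bra002139, had 109 TPM with normal supply, 241 with low Fe, 188 with low Zn, 136 with high Zn and 54.6 with Cd.

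The files also hold a measure of the libraries behind each mean. Both columns are read here as means over 3 libraries, which the labels do not state. The mean tag number then weights the 3 libraries by their totals and the mean TPM does not. Both together carry 1 weighted difference between the libraries for each gene and condition. This library contrast, in percent, is 0 when the 3 libraries agree, and its size estimates the coefficient of variation between them, counting error included. In the control and in Fe deficiency 1 library has a clearly lower total of clean tags than the other 2 (5637735 against 5900927 and 5947527 in the control). A negative contrast there arises mainly where this library holds more than its share of a gene's tags. A difference between the other 2 libraries also enters, so the sign alone does not settle which library is higher. The rule did not use the contrast, but the control mean that it used contains this library.

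In the control, all 30 genes had a negative contrast, against 48.7% of all genes tested. It ran from -0.94% to -151% with a median of -48.1%, and 17 of the 30 lay below -37.5%, the lowest 5% of all genes. The median over all genes was 0.59%, and the median size of their contrast was 13.1%. In 25 of the 30 genes the contrast was larger in size than this, and in the other 5 it was smaller. In Fe deficiency the median contrast of the 30 was 7.84%, with 10 negative, against 53.5% of all genes. In Zn deficiency 23 of 30 were negative, with a median of -23.9%, against 54.2% of all genes. In Zn excess 8 were negative (median 14.7%), against 42.2% of all genes. In Cd exposure 18 were negative (median -3.03%), against 35.4% of all genes. Under Cd exposure the median size of the contrast, 13.5%, was close to the 13.1% of all genes there.

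**Figure D4:**
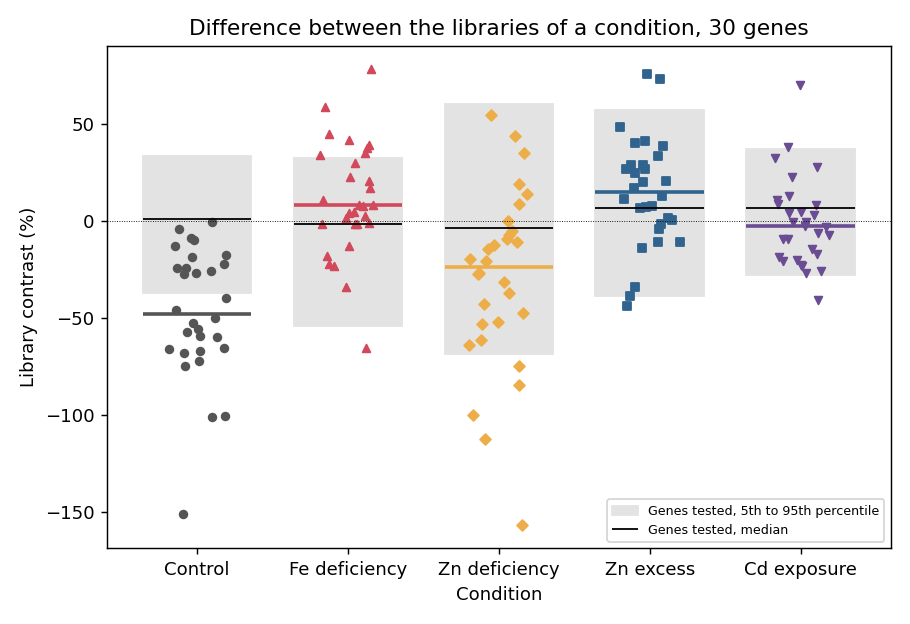
Library contrast in percent (y axis) of the 30 genes in each condition (points, jittered sideways, with a coloured line at their median), beside the range from the 5th to the 95th percentile of all genes tested (grey box) and their median (black line). All control points lie below 0, and 17 lie below the grey box.

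Since the totals of the other 2 control libraries differ little, the level in the control library of lowest total can be bounded for every split of the remaining tags between the other 2. In 23 of the 30 genes it lay above the mean of the other 2 for every possible split, against 16.0% of all genes tested, and in none did it lie below for every split. In the other 7 the possible splits allow either direction. With the other 2 taken as equal, the ratio of this library to their mean was 1.01 to 5.70, with a median of 1.74, where the median over all genes was 0.993. The ratio was at least 1.5 in 17 of the 30 genes, against 6.08% of all genes, and at least 2 in 9, against 1.39%. In Fe deficiency the library of lowest total had a median ratio of 0.907 in the 30 genes, where the median over all genes was 1.02. There 1 member, Bra024335 (2.09), had a ratio of at least 1.5, against 13.5% of all genes.

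The most abundant member showed the pattern clearly. Bra021506 had 213 to 254 TPM in the control library of lowest total and 115 to 136 TPM as the mean of the other 2. Bra034212 had 114 to 134 TPM against 55.0 to 64.7 TPM. With the other 2 taken as equal, the ratios were 1.89 and 2.10, beside Fe deficiency to control ratios of 2.74 and 2.22. Bra007195 had the largest ratio, 16.7 to 17.7 TPM against 2.80 to 3.29 TPM. Its 2.95 TPM under Cd exposure and 3.39 TPM under Zn excess are close to the other 2 control libraries, and its 19.5 TPM under Fe deficiency is close to the first. Bra027537 had 10.1 to 11.2 TPM against 3.18 to 3.75 TPM, and Bra035002 (named after its values were seen) had 10.5 to 11.7 TPM against 3.35 to 3.94 TPM. Other members differed little. Bra010669 had 21.6 to 30.1 TPM against 24.0 to 28.2 TPM, and Bra017931 had 7.29 to 10.0 TPM against 7.69 to 9.06 TPM. The 2 ranges overlap in these genes. Bra010404 had 5.02 to 6.41 TPM against 3.94 to 4.64 TPM, and its 0.638 TPM under Cd exposure lay below both.

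**Figure D5:**
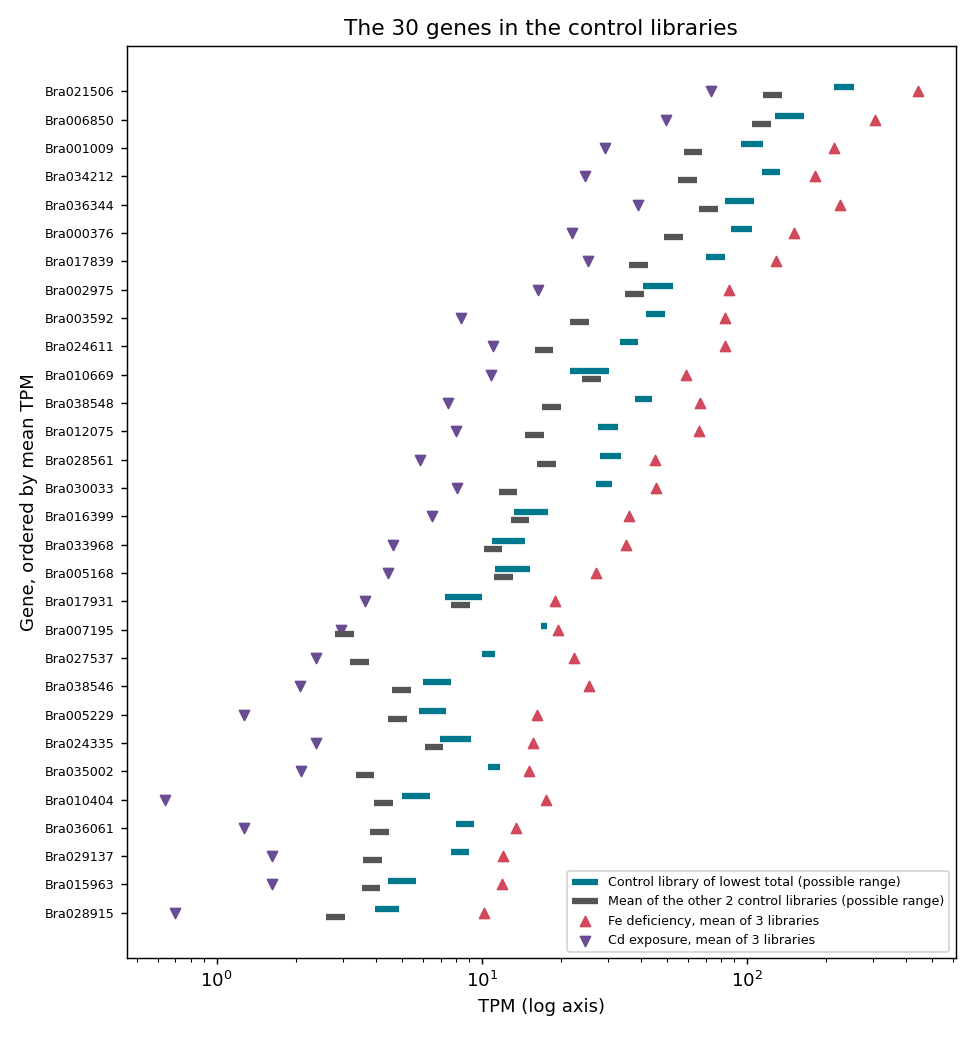
Possible range of the level (TPM, log axis) in the control library of lowest total (teal) and of the mean of the other 2 control libraries (grey) for each of the 30 genes, with the means under Fe deficiency (red) and Cd exposure (purple). The teal bar lies wholly to the right of the grey bar in 23 genes, and the Fe deficiency mean lies to the right of both bars in all 30.

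The Fe deficiency mean of all 30 genes was higher than either part of the control, while the Cd difference was smaller against the other 2 control libraries than against the mean of all 3. Against the mean of the other 2 control libraries, 28 to 30 of the 30 genes were at least 2-fold higher under Fe deficiency, depending on the split, and 14 to 20 were at least 2-fold lower under Cd exposure (29 or 30 were lower at all, the exception being Bra007195). The median change was then 1.47 to 1.70 for Fe deficiency and -1.20 to -0.98 for Cd exposure. The median under Zn excess turned from -0.22 to between 0.04 and 0.24, and 9 to 17 genes were at least 2-fold higher under Zn deficiency. Against the control library of lowest total alone, 6 to 19 genes were at least 2-fold higher under Fe deficiency and 27 to 30 were at least 2-fold lower under Cd exposure. Against the same library, 16 to 25 genes were higher at all under Zn deficiency. The rule required 2-fold changes against the mean of all 3, and with the other 2 taken as equal this library was the higher part in all 30. The direction of these shifts therefore largely follows by arithmetic and is no separate result. The Fe deficiency library of lowest total lay above the control library of lowest total in 24 of the 30 genes for every possible split. In Bra007195 it lay below, at 11.3 to 15.5 TPM against 16.7 to 17.7 TPM, and in the other 5 the ranges overlap. The count of 24 is given without a share of all genes, and the genes were chosen for a higher mean under Fe deficiency. It is therefore no separate evidence of a rise. With the control library of lowest total left out, the whole rule chose 11 to 17 genes, of which 7 to 12 were among the 30. What sets that control library apart was not tested.

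The 4 members with a Zn excess change of at least 0.5, Bra010669, Bra016399, Bra002975 (named for this count) and Bra006850, had control ratios of 1.01 to 1.31. The other 26 had a median control ratio of 1.86 and a median Zn excess change of -0.27. The control mean enters both the ratio and the change, so they are not independent of each other.

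Other groups of genes that share a direction with the 30 also had negative contrasts in the control. The 36 genes that were also 2-fold higher under Zn deficiency had a median of -63.7%, with 35 negative. The 229 genes higher under Fe deficiency only had a median of -18.8%, with 76.4% negative, and the 191 genes lower under Cd exposure only had a median of -11.3%, with 70.2% negative. The control library of lowest total was at least 1.5 times the others in 56.7% of the 30 members and 72.2% of the 36. The share was 62.9% in the 62, 28.8% in the 229 and 25.1% in the 191. In Zn deficiency 72.5% of the 229 had a negative contrast (median -20.0%), near the share in the 30. There it was 58.3% of the 36, 41.9% of the 62 and 48.2% of the 191. In Fe deficiency it was 35.4% of the 229, also near the share in the 30, and 25% of the 36, 22.6% of the 62 and 73.8% of the 191. These groups were chosen against the same control mean, so the differences between them were not tested.

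Fractional tag numbers, the form that tags divided among similar genes would take, occurred in 11 of the 30 genes in at least 1 condition, a share near that of all genes tested (37.4%). The 19 members without them had a median change of 1.29 for Fe deficiency, -1.27 for Cd exposure and a median control contrast of -52.9%, close to the values of all 30.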

How the data were processed

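Leaf digital gene expression data of 5 conditions were analysed, each deposited as 1 table. Per the file headers, the columns are an identifier, clean tags and TPM. The authors deposited the tags as estimated counts, which are not whole, and scaled the TPM to 1000000 clean tags. The labels do not say how the values of a condition were formed. That both columns are means over 3 libraries was inferred from the values. How tags were assigned to genes, and in which genome build, is not given in the sources used here. Genes absent from a condition were set to 0. The members and lists were chosen with earlier results of these data known. No test was run, since each condition is 1 value and the rule used all of them, and p-values are not given.

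Library totals were recovered from the 3 commonest TPM values among genes with 1 tag in 1 library. As a check, both columns had a whole-tag solution for 94.0% to 95.7% of genes with whole sums of up to 12 tags, against at most 0.899% with totals moved by 0.5%. The level in the library of lowest total follows from both columns, with its range over all non-negative splits between the other 2. On simulated libraries (10807 genes, control totals) genes raised 2-fold in that library had a median ratio of 1.98 and the others of 0.999, with the other 2 libraries taken as equal. All 3 libraries were drawn around 1 level per gene before the raise, with a small random spread between libraries. The simulation therefore does not cover genes whose other 2 libraries differ in level by much more than this spread. In Zn deficiency, Zn excess and Cd exposure the middle total lies near the mean, so single libraries were not bounded there. Tag sums of a member in a condition ran from 11 to 7777, and intervals cover counting error only. Genes named in full were those with the 5 highest means, the 5 largest changes under Fe deficiency and under Cd exposure, the extremes under both Zn treatments, and those nearest the thresholds. Gene lists by product name and promoter motifs were planned but not used, as no identifier matched a name. Other pseudocounts, filters, thresholds and size factors were tried. Python 3.11.15, pandas 2.3.3, numpy 2.4.6 and scipy 1.17.1 were used.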

Additional observations from a re-analysis of the deposited data

How the results depend on the processing

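The number of genes chosen moved with the settings. A pseudocount of 5 TPM gave 9 genes, of which 7 were among the 30. Size factors (median of ratios, log2 shifts of 0.18 for Fe deficiency and -0.08 for Cd exposure) left 13 of the 30. A minimum mean of 20 TPM left 16, thresholds of 1.5 left 1 (Bra010404), and limits for Zn of 0.5 left 8. Thresholds of 0.8 gave 84 and no limits for Zn 74. A pseudocount of 0.1 TPM gave 42, of which 28 were among the 30, and no filter gave 35. Leaving out 1 library, an alternative chosen after seeing the data, gave 11 to 17 genes for the control library of lowest total and 28 to 34 for that of Fe deficiency. Of these, 7 to 12 and 26 to 27 were among the 30. Over both, the median change of the 30 genes was 1.32 to 1.70 under Fe deficiency, and without the control library it was 0.83 to 1.05 under Zn deficiency, 0.04 to 0.24 under Zn excess and -1.20 to -0.98 under Cd exposure. The median change under Cd exposure was -0.83 with a pseudocount of 5 TPM. This median was counted as moved, and the other medians and those of the library contrast as unmoved. The count is a convention, since each condition has 1 value and no spread of a median was measured. The median under Zn excess was counted as unmoved although it turned from -0.22 to above 0 without the control library of lowest total. In relative terms the contrast in Fe deficiency (7.84%) moved to 20.3% without fractional tags and 3.06% at a mean of at least 20 TPM, where that in Zn excess was 6.69% and that in Cd exposure -1.77%, the latter being -0.95% without fractional tags. Of 126 values of the 21 named members under Fe deficiency and Cd exposure, 115 were counted as unmoved and none changed sign. Of 126 under the Zn treatments, 122 kept their sign, and Bra003592 (-0.06), Bra010404 (-0.0038), Bra017931 (-0.02) and Bra027537 (-0.06) turned below 0 under Zn excess with size factors. For the moves the cause was not tested, apart from the smaller or larger sets that filters, thresholds and limits give by construction. No paired analysis was possible because the 3 libraries of a condition come as a single mean.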
